A study of Mus musculus with 16 samples.

Results

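The transcripts of the translation initiation factors were described in S1 and S3 erythroblasts of the mouse foetal liver. The rule for membership used names and annotation and no measured level. It took every protein-coding gene of the count table whose symbol begins with Eif1 to Eif6, apart from the eIF2 kinases (Eif2ak) and the eIF4E-binding proteins (Eif4ebp). It held 66 of 55416 genes. The study compared embryos in which the promoter of Nprl3, a component of the GATOR1 complex that restrains the growth-regulating kinase complex mTORC1, was deleted in every cell, with the α-globin enhancers left in place. There were 4 wild-type embryos (numbered 0, 1, 5 and 8), 2 heterozygous embryos (Het; 3 and 4) and 2 homozygous embryos (KO; 2 and 9), on a C57BL/6J background at E13.5. From each embryo 1 library was made of S1 cells, the less mature of the 2 stages by Ter119 and CD71, and 1 of S3 cells, which are basophilic erythroblasts, giving 16 libraries. Embryos 1, 2 and 5 were female and the other 5 male, so both Het embryos were male.

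Initiation is the step at which a ribosome is brought to an mRNA and set on its start codon. The eIF4F complex, made of the cap-binding protein eIF4E, the scaffold eIF4G and the RNA helicase eIF4A, prepares the mRNA, while eIF1, eIF1A, eIF3, eIF5 and the eIF2 complex with initiator tRNA and GTP load the small ribosomal subunit. eIF2B recharges eIF2 with GTP, eIF5B joins the large subunit, and eIF5A, in spite of its name, acts mainly in elongation and termination. Erythroblasts depend on regulated initiation because globin synthesis must match the supply of haem, and mTORC1 acts on the same step through the eIF4E-binding proteins.

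Several members are pairs of near relatives, and 3 of these pairs are shown first because the results below turn on which copy was read. The sequences are the first 150 coding bases of the GENCODE vM39 canonical transcripts (GRCm39), 5′ to 3′, with the bases that differ between the copies in capitals.

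Eif2s3x: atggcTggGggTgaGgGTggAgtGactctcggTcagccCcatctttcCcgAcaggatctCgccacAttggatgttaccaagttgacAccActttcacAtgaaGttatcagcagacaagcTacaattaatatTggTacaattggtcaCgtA
Eif2s3y: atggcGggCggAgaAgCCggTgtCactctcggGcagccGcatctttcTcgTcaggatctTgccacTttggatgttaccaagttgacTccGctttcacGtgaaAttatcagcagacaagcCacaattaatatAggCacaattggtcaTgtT

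Eif2s3x (X:93232313-93256468, minus strand) and Eif2s3y (Y:1010543-1028847, plus strand) encode the X-linked and Y-linked copies of the γ subunit of eIF2, which binds GTP and the initiator tRNA. They differed at 23 of these 150 bases and were identical at 86.3% of all 1416 coding bases.

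Eif1: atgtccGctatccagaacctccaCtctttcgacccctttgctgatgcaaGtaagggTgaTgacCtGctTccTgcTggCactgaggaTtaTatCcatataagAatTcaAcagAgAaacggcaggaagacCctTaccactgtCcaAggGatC
Eif1b: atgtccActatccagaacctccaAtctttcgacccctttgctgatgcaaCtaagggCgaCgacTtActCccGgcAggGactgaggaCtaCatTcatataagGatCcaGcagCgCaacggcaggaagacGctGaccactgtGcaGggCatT

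Eif1 (11:100210711-100212922, plus strand) and Eif1b (9:120321298-120324396, plus strand) encode eIF1 and its close relative, which guard the fidelity of start codon choice. They differed at 25 of the 150 bases, and 81.1% of their 339 coding bases were identical.

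Eif5a: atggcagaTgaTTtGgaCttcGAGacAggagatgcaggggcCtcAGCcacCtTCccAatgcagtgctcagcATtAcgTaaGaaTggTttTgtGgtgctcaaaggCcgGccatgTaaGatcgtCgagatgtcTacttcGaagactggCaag
Eif5a2: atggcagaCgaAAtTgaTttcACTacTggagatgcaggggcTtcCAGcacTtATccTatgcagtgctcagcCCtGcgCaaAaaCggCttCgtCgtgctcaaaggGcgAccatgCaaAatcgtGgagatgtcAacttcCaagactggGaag

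Eif5a (11:69807540-69812784, minus strand) and Eif5a2 (3:28835425-28852995, plus strand), the copies of eIF5A, differed at 34 of the 150 bases and were identical at 73.2% of 459 aligned coding bases. The longest run of identical bases was 34 between Eif2s3x and Eif2s3y, 25 between Eif1 and Eif1b and 14 between Eif5a and Eif5a2. By contrast Eif3j1 and Eif3j2 shared a run of 781 bases and Eif4a3 and Eif4a3l2 a run of 151 bases. Reads that mapped to several places had been left out, so the values of those 4 genes and of Eif4a3l1 are uncertain. Strand was not used in counting, and 43.3% of the exon bases of Eif3d, 20.2% of Eif3j1 and 16.8% of Eif5b also lie in exons of other genes, so their values are uncertain as well. The same holds for Eif1ad (15.3%), Eif4e3 (14.8%), Eif4a2 (13.3%) and Eif1b (12.7%), and the shares of the other members were smaller.

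Promoter sequences of 39 of the 66 genes were matched by symbol in RefSeq (GRCm38.p6, a different build from that of the counts), each 250 bases before to 50 after a start site. The E-box CACGTG, bound by MYC and its relatives, was found in at least 1 promoter of 10 of these 39 genes (25.6%), compared with 8.09% of 27025 genes in the whole table. The 10 genes were Eif1b, Eif3a, Eif3f, Eif3k, Eif4a1, Eif4e, Eif4g1, Eif4h, Eif5a and Eif5a2. Among promoters rather than genes the shares were 12 of 51 (23.5%) and 7.15% of 32851. Promoters listed for the same gene can overlap, and overlapping ones of Eif5a held the same E-box, so these are not counts of separate sites. The promoters of Eif5a2, the member with the largest rise below, and of Eif4e, the cap-binding protein, each held 2, in capitals here. Eif4g1, which was lower at S3, held 2 as well, and a second promoter listed for Eif4e held none.

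Eif5a2 (chr3:28781027-28781326, plus strand): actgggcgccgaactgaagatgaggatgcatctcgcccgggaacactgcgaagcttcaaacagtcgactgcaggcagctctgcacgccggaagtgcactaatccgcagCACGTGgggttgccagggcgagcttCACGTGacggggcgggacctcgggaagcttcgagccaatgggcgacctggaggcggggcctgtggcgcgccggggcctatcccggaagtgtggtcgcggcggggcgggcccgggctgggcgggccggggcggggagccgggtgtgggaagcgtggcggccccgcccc
Eif4e (chr3:138527018-138527317, plus strand): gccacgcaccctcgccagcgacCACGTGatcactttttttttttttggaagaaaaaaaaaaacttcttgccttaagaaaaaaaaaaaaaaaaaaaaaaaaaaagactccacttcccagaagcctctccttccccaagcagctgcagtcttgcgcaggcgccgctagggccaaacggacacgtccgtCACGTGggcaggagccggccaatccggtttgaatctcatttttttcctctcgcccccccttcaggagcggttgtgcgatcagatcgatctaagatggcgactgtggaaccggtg

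The E-boxes began 142 and 117 bases before the start site of Eif5a2, and 228 and 64 bases before that of Eif4e. The C/EBP-ATF response element (TGATGNAAN) was found for 1 of the 39 genes, Eif2s3x, against 4.50% of all genes, and the GATA motif AGATAA for 2 (5.13%), Eif3c and Eif4a3l1, against 12.7%. Each motif was searched on both strands, and a match is a match of letters only.

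S1 libraries held 23331156 to 36035368 counts and S3 libraries 20666044 to 37609502. Globin transcripts made up 0.0738 to 1.07% of counts at S1 and 10.0 to 11.8% at S3, and the summed normalised counts of 4 progenitor markers (Kit, Myb, Gata2 and Cd34) lay between 4835 and 6854 in S1 libraries but between 51.6 and 256 in S3 libraries. The S1 libraries of wild-type embryos 0 and 8, both male, stood apart with 1.00 to 1.07% globin, against 0.0738 to 0.305% in the other 6. Of other cell types, 5 neutrophil markers summed to 3293 to 43777 normalised counts at S1 and 25.7 to 225 at S3, and 15 macrophage markers to 7414 to 14194 and 121510 to 181048, nearly all of it Ctsb. Of 7 hepatoblast markers 3 were called higher at S3 in wild-type, 5 in Het and 0 in KO. All 3 lists moved with stage in wild-type, and their part in the stage comparisons was not tested. Nprl3 itself had 691 to 996 normalised counts in wild-type at S1, 386 and 396 in Het, and 9.74 and 20.6 in KO. At S3 it had 4446 to 6215 in wild-type, 3593 and 4463 in Het, and 3256 and 3377 in KO, so the KO libraries were lowest at both stages. Most α-globin enhancers lie within Nprl3 and can give rise to spliced transcripts of their own, which a count per gene does not separate from mRNA of the deleted promoter, so the S3 counts do not measure what that promoter still made.

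Of the 66 members, 48 were expressed above a mean of 10 normalised counts in the wild-type libraries. The 18 that were not were 16 relatives of Eif1ad in a cluster on chromosome 12, none with more than 3 reads in any library, the Eif4a3 copy Eif4a3l1 with at most 6 reads, and the oocyte cap-binding protein Eif4e1b with none. At S3 Eif4e3 also dropped below the limit, leaving 47. On a scale that corrects for gene length (TPM, the transcript share after dividing by exon length), Eif5a was the most abundant member, at a wild-type mean of 5392 TPM at S1 and 2329 at S3. Eif1 was next at both stages, with 1889 and 2133 TPM, and Eif4a1 after them at S1 with 1166 TPM. Eif5 moved from 11th at S1 (421 TPM) to 3rd at S3 (817 TPM). Eif1a moved from 20th to 41st (283 to 15.1 TPM), and Eif2b1 from 14th to 32nd (357 to 41.8 TPM). All members together took 2.20 to 2.44% of counts at S1 and 1.31 to 1.54% at S3, so their joint share fell in every embryo. A share of all counts moves with the globin share, and levels here are per library, so less RNA per cell cannot be told from a different mix of cells.

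The first comparison asked how initiation factor transcripts changed with maturation, from S1 to S3 in wild-type embryos. The factors did not move as a group. Eif5a2, Eif5 and Eif1 rose 3.02 to 7.10-fold, while Eif1a, Eif4b, Eif2b1, Eif4g3 and Eif4a2 fell to 0.142 to 0.434 of their S1 level. With edgeR's quasi-likelihood test and Benjamini-Hochberg adjustment over 13514 genes, 9 of 48 members were higher at S3 (18.75%, against 30.6% of all genes tested) and 17 were lower (35.4%, against 35%). The median log2 fold change was -0.15 over the members and -0.08 over all genes. On counts normalised within the wild-type libraries, the 2 stages did not overlap for 9 members that were above and 12 that were below, with 27.4% and 32.8% of all genes doing so. These log2 fold changes are relative to the bulk of transcripts. When libraries were scaled by total count alone, the median of all genes was -1.10, with 3 members higher (Eif5a2, Eif5 and Eif1, against 13.8% of all genes) and 41 lower (against 63.1%). The sign flipped for 6 of the 9 rises, those of Eif2d, Eif5b, Eif3j1, Eif2s2, Eif3k and Eif3l, although all 26 called members kept their side of the median of all genes. Without embryo 0 or without embryo 5 the number lower was 10 (31.1% and 29.4% of all genes), and without embryos 0 and 8 together 10 members were higher and 14 lower (28.9% and 33.5%).

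**Figure D1:**
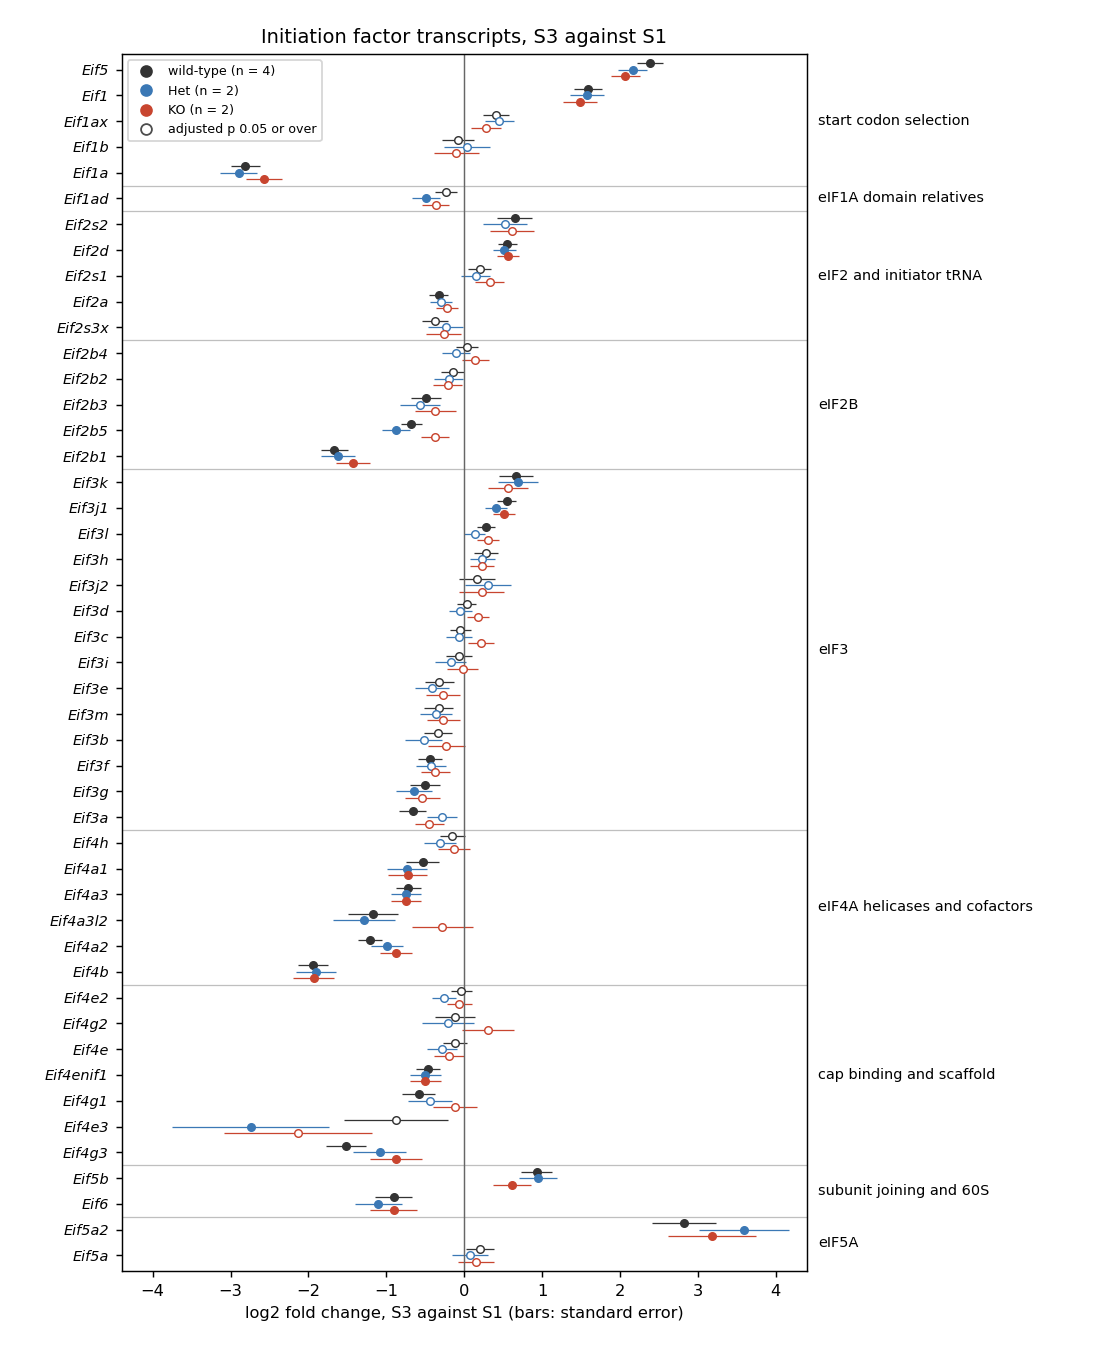
Log2 fold change from S1 to S3 for the 47 tested members other than the Y-linked Eif2s3y, grouped by role, in wild-type (n = 4 embryos), Het (n = 2) and KO (n = 2); bars are standard errors and filled points have an edgeR adjusted p under 0.05. Eif5, Eif1 and Eif5a2 lie to the right and Eif1a, Eif4b and Eif2b1 to the left in all 3 genotypes, while no point for eIF4A and its cofactors lies to the right of 0.

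The largest rise was that of Eif5a2. Its normalised counts in wild-type embryos 0, 1, 5 and 8 were 246, 103, 163 and 445 at S1 and 1758, 1491, 1277 and 1993 at S3 (log2 fold change 2.83 ± 0.41 (SE), n = 4 and 4, edgeR adjusted p = 0.000155). Every S3 library was above every S1 library, although the transcript remained rare. Eif5 encodes the protein that makes eIF2 hydrolyse its GTP once the start codon is met. It had 20736, 25421, 20690 and 19501 normalised counts at S1 and 101590, 103409, 99448 and 125879 at S3 (2.39 ± 0.17, adjusted p = 1.32e-06). Eif1, its partner in start codon choice, went from 30770, 33181, 33622 and 22730 to 69551, 97259, 102887 and 78715 (1.595 ± 0.18, adjusted p = 2.9e-05). Neither gene's S1 and S3 libraries came near each other. The GTPase gene Eif5b went from 5176, 7294, 5594 and 3596 to 8272, 11330, 10010 and 9925 (0.93 ± 0.20, adjusted p = 0.00201). Eif3k, an outer subunit of eIF3, went from 7433, 7512, 8000 and 4065 to 8529, 12326, 11666 and 8519 (0.66 ± 0.22, adjusted p = 0.0200). For Eif3k the gap between the stages was narrow, and the call was lost without embryo 1 (adjusted p = 0.0645) and with upper-quartile scaling (adjusted p = 0.0749). That scaling also ended the calls of Eif2s2 (adjusted p = 0.0863) and Eif3l (adjusted p = 0.424).

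The largest fall was that of Eif1a, one of 2 genes for eIF1A, which helps the small subunit scan for the start codon. Its normalised counts in embryos 0, 1, 5 and 8 were 8386, 9960, 9640 and 7631 at S1 and 1116, 1688, 1114 and 955 at S3 (log2 fold change -2.81 ± 0.19, adjusted p = 9.91e-07). Eif4b encodes a cofactor of the eIF4A helicase. It fell from 7418, 5481, 7449 and 9918 to 2145, 1891, 1838 and 1686 (-1.94 ± 0.19, adjusted p = 1.02e-05). Both genes were lower at S3 in each embryo, with no overlap. Eif2b1, the α subunit of eIF2B, fell from 7156, 7302, 7596 and 5737 to 1819, 2758, 2217 and 1597 (-1.67 ± 0.17, adjusted p = 1.5e-05). The scaffold gene Eif4g3 fell from 535, 972, 511 and 852 to 275, 214, 197 and 274 (-1.52 ± 0.25, adjusted p = 0.000406). The helicase gene Eif4a2 fell from 2927, 2723, 2316 and 3121 to 1338, 1213, 977 and 1078 (-1.20 ± 0.16, adjusted p = 7.18e-05). Leaving out each wild-type embryo in turn kept the call for all 10 of these genes except Eif3k.

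**Figure D2:**
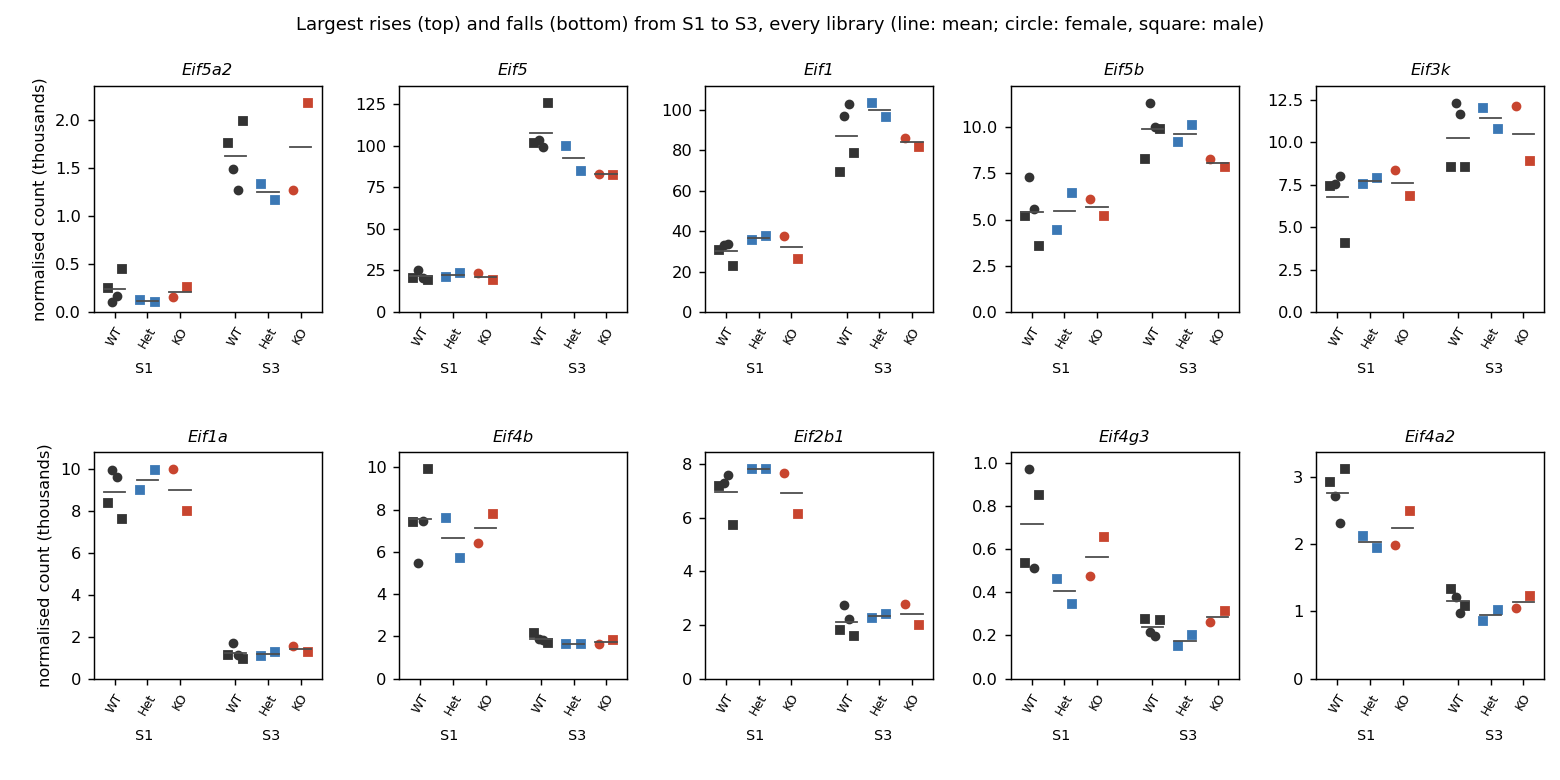
Normalised counts (axis scaled as labelled) of the 5 largest rises (top) and 5 largest falls (bottom) in every library by genotype and stage; lines are group means, circles female and squares male embryos. S3 libraries lie above S1 libraries of the same genotype for the top genes and below for the bottom ones.

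The members were also counted by role, with 30.6% of all genes higher and 35% lower as the background to each count, and no role was tested as a group. Of the 6 eIF4A helicases and cofactors tested, 5 were lower at S3 (Eif4b, Eif4a2, Eif4a3l2, Eif4a3 and Eif4a1) and none was higher, and Eif4h did not pass the test (-0.15). Of the 5, Eif4a3 and its near copy Eif4a3l2 have uncertain values, as stated above. Eif4a1 was called at an edgeR adjusted p of 0.0466, and its stages overlapped. The cap-binding and scaffold genes had 3 of 7 lower (Eif4g3, Eif4g1 and Eif4enif1) and none higher, near the background for the lower ones, whereas Eif4e itself had a log2 fold change of -0.12 ± 0.16. Among the 5 subunits of eIF2B, 3 were lower (Eif2b1, Eif2b5 and Eif2b3) and none was higher. The 14 genes of eIF3, the largest initiation factor, were split. Eif3k, Eif3j1 and Eif3l were higher, Eif3a, Eif3f and Eif3g lower, and the other 8 did not pass the test, with a median of -0.06 over all 14. Eif3a, a core subunit, fell by 0.66 on the log2 scale and Eif3l rose by 0.28, so subunits of the same complex differed in direction. Among the genes for eIF2 and related carriers of the initiator tRNA, Eif2s2 (0.65) and Eif2d (0.55) were higher and Eif2a (-0.33) lower, while Eif2s1, the α subunit phosphorylated by the eIF2 kinases, had 0.20 ± 0.15. Eif6, which keeps the large subunit from joining early, fell by 0.90 on the log2 scale. Of the 10 genes with an E-box, 2 were higher, 4 lower and 4 not called, and of the 28 tested genes whose promoters held none, 7 were higher, 9 lower and 12 not called.

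The same change in the other genotypes was measured in separate libraries, within 1 fit of all 16. In Het 7 members were higher and 14 lower (28.9% and 32.4% of all genes tested), and in KO 6 were higher and 9 lower (26.9% and 30%), without the embryo as a block. Eif1, Eif2d, Eif3j1, Eif5, Eif5a2 and Eif5b were higher in all 3 genotypes (6 of 48, against 24.7% of 13290 genes tested in all 3). Eif1a, Eif2b1, Eif4a1, Eif4a2, Eif4a3, Eif4b, Eif4enif1, Eif4g3 and Eif6 were lower in all 3 (9 of 48, against 27.2%). No member was called in opposite directions, 20 of 48 were called in none (28.9% of all genes), and 43 had the same sign in all 3, a share of 89.6% beside 88.5% of all genes. These counts rested on few embryos. Each embryo gave 1 library of each stage, and with the embryo as a block the counts were 10 and 17 in Het (31.4% and 34.4% of all genes) and 9 and 13 in KO (29.2% and 32.1%). With the block 9 were higher in all 3 genotypes (26.8% of all genes), with Eif2s2, Eif3k and Eif2s3y added. Then 10 were lower in all 3 (29.1%), with Eif2b3 and Eif3g added and Eif4a1 no longer among them, and 17 were called in none (24.5%). Without embryo 3 the Het counts were 3 higher and 5 lower (19.3% and 22.1% of all genes), and without embryo 4 they were 4 and 6 (19.7% and 23.0%). Without embryo 2 or 9 the number lower in KO was 5 (20.5% and 21.6%). The log2 fold change of Eif5 was 2.39 in wild-type, 2.17 in Het and 2.07 in KO. That of Eif1a was -2.81, -2.90 and -2.57, and that of Eif5a2 was 2.83, 3.60 and 3.18. The interaction fit, which asks whether the change from S1 to S3 differed between KO and wild-type, called 0 of 48 members (0.00742% of 13485 genes, which is Nprl3 alone) and DESeq2 called 0 as well, with 0 members at an unadjusted p under 0.05 by either (3.11% and 3.56% of all genes). The smallest p was that of Eif4a3l2, at 0.89 ± 0.52 (adjusted p = 1). Its normalised counts in wild-type embryos 0, 1, 5 and 8 were 30.5, 34.6, 46.6 and 29.5 at S1 and 14.2, 15.7, 18.7 and 10.5 at S3, against 30.7 and 24.5, then 24.5 and 17.96 in KO embryos 2 and 9.

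Because several factors exist as paralogues, the share of the second copy in the length-scaled counts of a pair was also compared. Such a share does not depend on how libraries are scaled. Among wild-type embryos Eif1ax, the X-linked gene for eIF1A, supplied 38.8% ± 2.9 (SD, n = 4) of the pair with Eif1a at S1 and 85.7% ± 1.7 at S3. The lowest and highest values were 35.0 and 41.6% at S1 and 83.6 and 87.1% at S3, so the main source of eIF1A transcripts changed from 1 gene to the other in every embryo. Eif1ax itself had 7539, 8493, 7538 and 5182 normalised counts in embryos 0, 1, 5 and 8 at S1 and 8074, 10904, 9413 and 8174 at S3 (0.41 ± 0.17, adjusted p = 0.0516). Eif1b supplied 19.7% ± 2.1 of the pair with Eif1 at S1 and 7.17% ± 0.84 at S3, with 3911, 5230, 3883 and 2900 counts at S1 and 2744, 4778, 3831 and 3157 at S3. Its own log2 fold change was -0.08 ± 0.20, so the lower share went with the rise of Eif1.

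The share of Eif4g3 beside Eif4g1 was 9.26% ± 1.8 at S1 and 5.03% ± 0.28 at S3, and that of Eif5a2 beside Eif5a 0.131% ± 0.11 and 0.745% ± 0.26. Eif5a, which stayed by far the larger source, had 96870, 109729, 110493 and 72314 counts at S1 and 89524, 130043, 119324 and 91828 at S3. In these 4 pairs no S1 library overlapped an S3 library. An exact two-sided permutation test gave p = 0.0286 for each, the smallest that 4 against 4 allows. After adjustment over the 7 pairs p was 0.05 for each, which is at and not under the threshold. The shares of Eif4a2 beside Eif4a1 (5.97% ± 2.0 and 3.62% ± 0.64, exact p = 0.0857), Eif4e2 beside Eif4e (20.1% ± 0.66 and 20.99% ± 0.67, exact p = 0.114) and Eif4e3 beside Eif4e (0.287% ± 0.21 and 0.189% ± 0.077, exact p = 0.40) overlapped between stages.

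**Figure D3:**
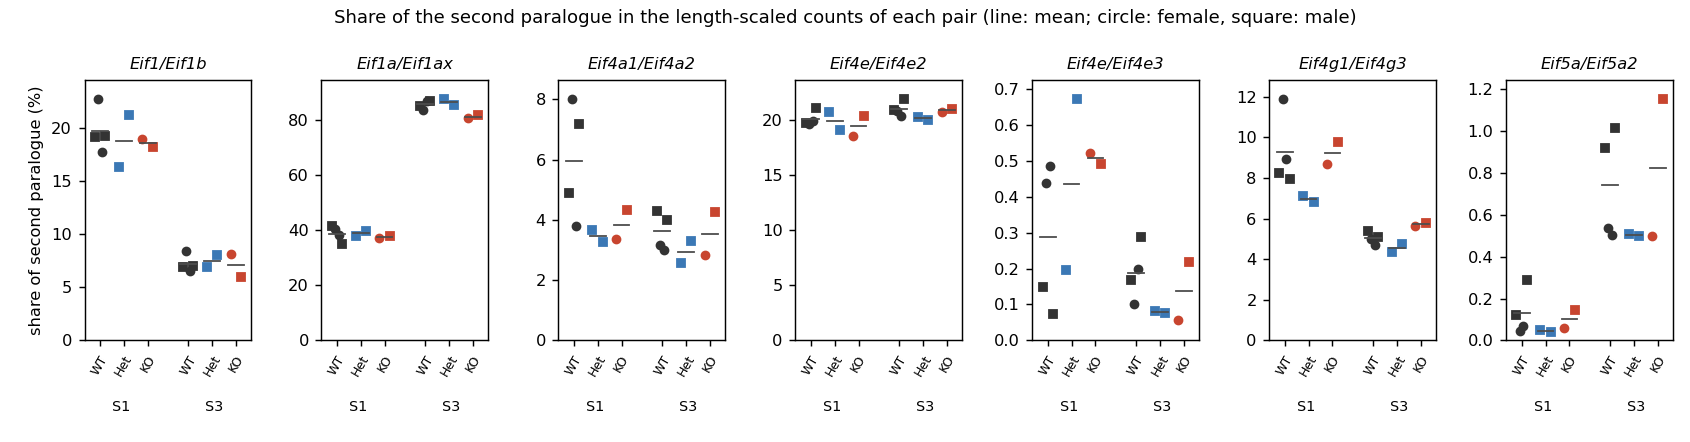
Share of the second paralogue (%) in the length-scaled counts of each of 7 pairs, by genotype and stage in every library; lines are group means, circles female and squares male embryos. The share of Eif1ax rises to over 80% at S3 and that of Eif1b falls to under 9% at S3 in every genotype, while that of Eif4e2 stays near 20%.

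For Eif4a1 and Eif4g1 the wild-type S1 libraries were spread widely. Eif4a1 had 46200, 25356, 47809 and 32792 normalised counts at S1 and 24124, 30221, 25659 and 20940 at S3. Eif4g1 had 3918, 4746, 3440 and 6516 at S1 and 3190, 2688, 2638 and 3376 at S3. Eif4e had 16799, 17932, 17832 and 12141 at S1 and 12909, 16659, 15474 and 12166 at S3, and Eif4e2 5153, 5463, 5544 and 4044, then 4260, 5458, 4925 and 4260. The stages overlapped for Eif4a1, Eif4e and Eif4e2. For Eif4g1 every S3 library was below every S1 library on this scale of all 16 libraries, though only just (3376 against 3440). Eif4e3 was close to the lower limit of detection, with 10.5, 33.1, 36.5 and 3.76 counts at S1 and 9.03, 7.13, 12.9 and 14.7 at S3.

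The main question of the study was what loss of Nprl3 does to erythroblasts, and it was put to the members at each stage. No member was called between KO and wild-type. At S3, 0 of 47 had an edgeR adjusted p under 0.05 (66 of 11804 genes, 0.559%) and at S1 0 of 48 (1 gene, 0.00712%). At both stages 0 members had an unadjusted p under 0.05, against 8.52% of all genes at S3 and 2.53% at S1, and DESeq2 called 0 (of all genes 1.22% higher and 0.974% lower at S3, and 0.264% and 0.0570% at S1). Adding sex as a covariate also gave 0 calls, with 8 members at an unadjusted p under 0.05 at S3 (19.1% of all genes) and 1 at S1 (5.68%), while over all genes 285 were then called higher and 262 lower at S3 (2.41% and 2.22%) and 0.128% and 0.0214% at S1. The median log2 fold change over the members was 0.07 at S3 (0.01 over all genes) and 0.03 at S1 (-0.01 over all genes), and 38 of 47 members were above 0 at S3. The sign of the median turned when 1 embryo was left out. Without KO embryo 2 it was -0.05 at S3 and -0.11 at S1, and without KO embryo 9 it was 0.17 and 0.13. At S1 it was also below 0 without wild-type embryo 8 (-0.0067) and without wild-type embryos 0 and 8 together (-0.0495). The KO libraries lay outside the range of all 4 wild-type libraries for 4 members at S3 (18.5% of all genes tested) and for 0 at S1 (10.2%). In the S3 libraries the summed normalised counts of 15 macrophage markers were 121510 to 133823 in KO and 141303 to 181048 in wild-type, with 2 of the 15 called lower (Fcna and Marco, median log2 fold change of the list -1.30). Nearly all of these sums was Ctsb, at 120868 to 132632 in KO and 138900 to 179695 in wild-type, and the other 14 markers summed to 642 to 1191 and 1353 to 3015. Those of 11 erythroblast markers were 4704100 to 4705330 and 5231690 to 6152940, with 0 called. Both KO libraries were thus below every wild-type library for each of these sums, whose part in the S3 values was not tested.

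The members with the smallest p at S3 were Eif5, Eif2b5 and Eif3c. Eif5 had 83124 and 82347 normalised counts in KO embryos 2 and 9, below the 99448 to 125879 of wild-type (-0.33 ± 0.16, adjusted p = 0.66). The sign was the same without each embryo in turn, from -0.39 to -0.24. Eif2b5, the catalytic subunit of eIF2B, had 4261 and 3252 in KO and 3043, 3644, 3328 and 2856 in wild-type embryos 0, 1, 5 and 8 (0.28 ± 0.15, adjusted p = 0.687). These ranges overlapped, and the value was 0.086 without KO embryo 2 and 0.45 without KO embryo 9. Eif3c, a core subunit of eIF3, had 7279 and 8141 in KO and 7169, 6389, 6349 and 7168 in wild-type (0.24 ± 0.14, adjusted p = 0.71), both KO values being higher, with 0.15 to 0.33 when 1 embryo was left out.

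At S1 the smallest p belonged to Eif4a2, Eif4g1 and Eif4e3, and for each the KO values lay within those of wild-type or overlapped them. Eif4a2 had 1997 and 2496 in KO embryos 2 and 9 (-0.30 ± 0.21, adjusted p = 1.00), Eif4g1 3317 and 3997 (-0.34 ± 0.29) and Eif4e3 42.7 and 31.6 (0.85 ± 0.75). When 1 embryo was left out these values ranged from -0.49 to -0.15, from -0.51 to -0.11 and from 0.49 to 1.24. Summed over 5 neutrophil markers the S1 libraries held 43108 and 43777 normalised counts in KO, 41428 and 42138 in Het and 3293 to 35956 in wild-type. Most of this was Mpo, at 37454 and 38602 in KO and 2887 to 29649 in wild-type, while the other 4 markers summed to 5175 and 5654 in KO, within the 406 to 6510 of wild-type. None of the 5 was called between KO and wild-type at S1, and the part of these transcripts in the S1 comparisons was not tested.

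In Het against wild-type 0 of 47 members were called at S3 and 0 of 48 at S1, as were 0% of all genes tested, with 1 and 3 members at an unadjusted p under 0.05 (3.18% and 4.26% of all genes) and 0 called by DESeq2 (0.00851% of all genes lower at S3 and 0.217% at S1, and 0 higher). Het libraries lay outside the wild-type range for 4 members at S3 (12.5% of all genes) and 14 at S1 (18.2%). In the S1 libraries the summed normalised counts of 11 erythroblast markers were 68780 to 75879 in Het and 84821 to 299127 in wild-type. Those of 7 hepatoblast markers were 689 to 1152 and 1786 to 10353, and those of 5 megakaryocyte markers 412 to 421 and 773 to 1631, so Het was below every wild-type library for all 3 sums, and their part in the S1 values was not tested. Eif2s3x had the smallest p at both stages. Its values in Het embryos 3 and 4 were 1650 and 1369 at S1 (-0.66 ± 0.22, unadjusted p = 0.0196, adjusted p = 0.905 by edgeR) and 1154 and 1203 at S3 (-0.52 ± 0.15, unadjusted p = 0.00641, adjusted p = 0.901 by edgeR), below every wild-type library. Both Het embryos were male. With sex as a covariate, which compares Het with the 2 wild-type males in effect, 9 members were higher and 4 lower at S3 (8.84% and 9.25% of all genes), and Eif2s3x was among the latter (-0.36, adjusted p = 0.0352), beside Eif4g1 (-0.42), Eif4g2 and Eif5a2. The 9 higher were Eif1b (0.57), Eif6 (0.51), Eif2b1 (0.48), Eif1 (0.46), Eif3k (0.44), Eif2s2 (0.39), Eif2b3 (0.39), Eif4a3 (0.35) and Eif3g (0.33). For Eif6 the Het counts of 6089 and 5502 were above those of the wild-type males (4349 and 3912), while the wild-type females had 6991 and 6050. Those 2 males are embryos 0 and 8, whose S1 libraries stood apart. The summed counts of the 7 hepatoblast markers at S3 were 4139 to 5593 in Het, below the 6106 to 26885 of wild-type, and their part in these calls was not tested.

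Next at S3 came Eif4g2, a scaffold that acts without the cap-binding protein, with 17460 and 17672 in Het and 25734, 19075, 19870 and 24905 in wild-type embryos 0, 1, 5 and 8 (-0.30 ± 0.17, adjusted p = 0.901). Eif5a2 had 1333 and 1170 in Het against 1277 to 1993 in wild-type (-0.33 ± 0.20). With sex as a covariate both were called (Eif4g2 -0.50, adjusted p = 0.0086, and Eif5a2 -0.56, adjusted p = 0.0132). At S1 Eif4g3 had 463 and 347 in Het (-0.82 ± 0.32) and Eif4a2 2121 and 1940 (-0.45 ± 0.19), both below every wild-type library and both with an adjusted p of 0.905.

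**Figure D4:**
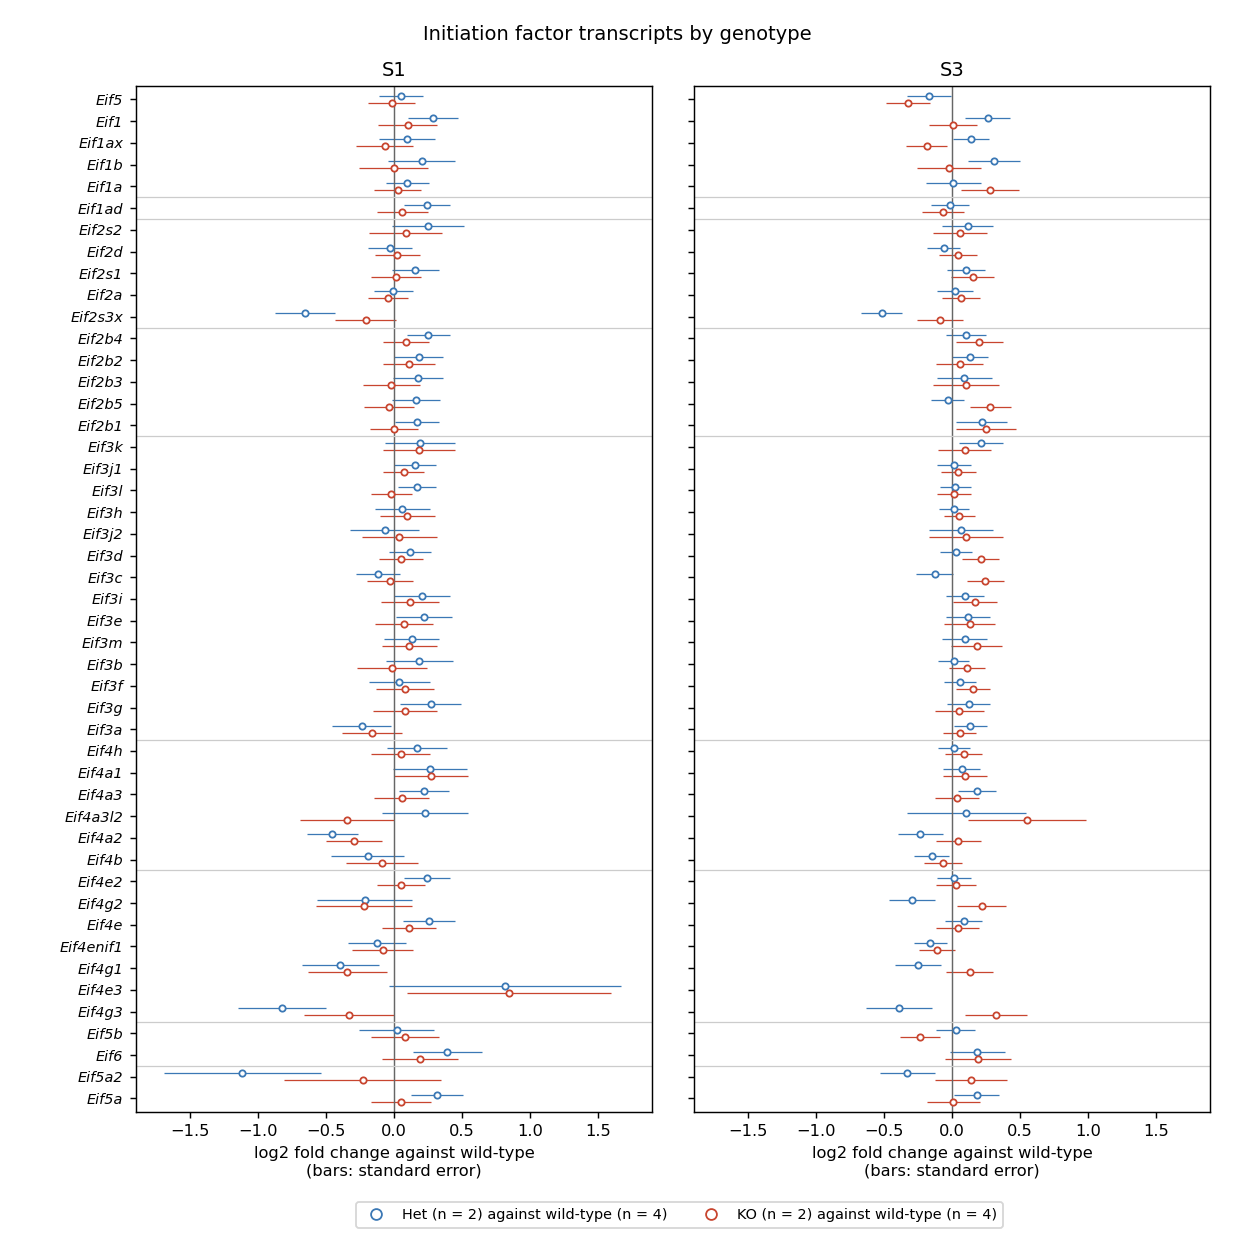
Log2 fold change of the members against wild-type (n = 4) in Het (n = 2) and KO (n = 2) at S1 (left) and S3 (right), without the Y-linked Eif2s3y; bars are standard errors and open points mark that none had an edgeR adjusted p under 0.05. Eif2s3x lies to the left in Het at both stages, and Eif4e3 and Eif5a2 have the widest bars at S1.

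Eif2s3x and Eif2s3y were then described by the sex of the embryo. The authors had assigned sex from reads on the Y chromosome, so the presence of Eif2s3y in males is part of that assignment, and its levels are given as a description. Females had 1 or 2 reads of Eif2s3y in each library and males 1731 to 2988 at S1 and 1961 to 4232 at S3. In normalised counts the males (WT 0 and 8, Het 3 and 4, KO 9) had 2272, 1497, 1908, 1518 and 1880 at S1 and 5460, 4127, 4173, 3112 and 4350 at S3. On this scale every male had more at S3, whereas in TPM only wild-type embryo 0 did (69.4 to 75.3) and the other 4 had less, at 43.4 to 64.0 TPM at S1 and 39.3 to 63.3 at S3. Eif2s3y supplied 33.2 to 52.7% of the length-scaled transcripts of the pair in males at S1 and 70.3 to 76.8% at S3.

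Eif2s3x had 2151, 2706 and 2251 normalised counts in females (WT 1 and 5, KO 2) at S1 and 2032, 1938 and 1778 at S3. Males had 1865, 2759, 1650, 1369 and 1838 at S1 and 1553, 1524, 1154, 1203 and 1396 at S3. The sexes overlapped at S1 through wild-type embryo 8 and were apart at S3, where males were lower (-0.31 ± 0.07, edgeR adjusted p = 0.00952). Both genes together reached 55.9 to 98.7 TPM in males and 25.05 to 26.2 TPM in females at S3, with the Y-linked transcript above the X-linked one in every male.

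Many other members also differed by sex at S3. With genotype in the fit, 22 of 47 were lower in males (46.8%, against 15.7% of all genes tested) and 4 were higher (against 14.7%). Among the higher ones is Eif2s3y, which is no result because it follows from how sex was assigned, and this holds for each count of higher members by sex. Both Het embryos were male, so the difference rested on 2 male and 2 female wild-type embryos and 1 male and 1 female KO embryo. The median over the members was -0.24 and over all genes -0.0012. At S1 none was lower (0.244% of all genes), and Eif2s3y alone was higher (0.877%), with 6 at an unadjusted p under 0.05 (21.4% of all genes). DESeq2 gave 0 lower (2.46% of all genes) and called Eif5a2 higher beside Eif2s3y (3.36%). Without a filter on low counts Eif5a2 and Eif4g2 were called higher too (3.53%), and Eif4e3 and Eif6 lower (3.03%). Without wild-type embryo 0 the median over the members at S1 was -0.26 in place of -0.17, and 25 of 48 had an unadjusted p under 0.05 (30.6% of all genes). Among markers at S1, 7 of 11 for erythroblasts (median log2 fold change 1.91) and 6 of 7 for hepatoblasts (2.05) were called higher in males. No macrophage, megakaryocyte, neutrophil or progenitor marker was called by sex at S1. The part of these transcripts in the S1 values was not tested. Whether the difference by sex was itself different at S1 and S3 was not tested. All 5 genes of eIF2B were among the 22, though the call of Eif2b5 was lost in 7 of 8 fits that left out 1 embryo and that of Eif2b2 in 2, with Eif2b3 at -0.56 ± 0.09 (adjusted p = 0.00157) and Eif2b1 at -0.48 ± 0.09. The lowest value was that of Eif6, at -0.59 ± 0.08 (adjusted p = 0.00069). The 5 eIF3 genes called (Eif3e, Eif3g, Eif3i, Eif3k and Eif3m), Eif1b, Eif1ax, Eif1ad, Eif2s1, Eif2s2, Eif2s3x, Eif4a1, Eif4a3, Eif4e, Eif4e2 and Eif5a made up the rest, at -0.50 to -0.24. The other members that were higher in males were Eif5a2 (0.60 ± 0.11, adjusted p = 0.00213), Eif4g2 (0.39 ± 0.08, adjusted p = 0.00368) and Eif4g1 (0.33 ± 0.09, adjusted p = 0.0207).

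At S3 Eif6 had normalised counts of 6991, 6050 and 6993 in females and 4349, 3912, 6089, 5502 and 4667 in males, in the same order of embryos. Eif2b3 had 4061, 3243 and 3747 in females and 2477, 2298, 2943, 3204 and 2480 in males, and Eif2b1 2758, 2217 and 2795 in females and 1819, 1597, 2246, 2420 and 1983 in males. For Eif6 and Eif2b1 a Het male exceeded the lowest female, while for Eif2b3 every male was below every female on this scale, which is that of all 16 libraries. The wild-type males were lowest for all 3 genes. Eif4e had 16659, 15474 and 15685 in females and 12909, 12166, 14693, 14421 and 12522 in males, every male being below every female. Eif4g2 had 19075, 19870 and 22773 in females and 25734, 24905, 17460, 17672 and 27351 in males, and its Het males were below the females, with the fit comparing sexes within genotype. For Eif5a2 the values were 1491, 1277 and 1267 in females and 1758, 1993, 1333, 1170 and 2183 in males, highest in KO embryo 9.

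Some calls by sex were lost when 1 embryo was left out. This ended the calls of Eif1ax and Eif4a1 in 6 of 8 fits, of Eif4e2 and Eif4g1 in 4, of Eif2s1 in 3, and of Eif2s3x, Eif3i, Eif4e and Eif5a in 2, those without KO embryo 2 or 9. In these fits the log2 fold changes kept their sign, at 0.27 to 0.37 for Eif4g1, -0.29 to -0.17 for Eif1ax and -0.35 to -0.22 for Eif4a1, and the median over the members was -0.28 to -0.21. All male libraries were below all female libraries for 6 members at S3 (2.84% of all genes) and above for 1 (2.13%), on counts normalised within the stage. On the scale of all 16 libraries 16 members were below (7.02% of all genes) and 1 above (0.908%). Within the 4 wild-type libraries alone 8 members were lower (6.88% of all genes) and 3 higher (7.22%), and without KO embryo 2 or KO embryo 9 the number lower was 12 (9.66% and 9.71%). Hepatoblast markers, summed over 7 genes, were 4139 to 26885 in male and 2744 to 8355 in female S3 libraries, with 7 of 7 called higher in males. Of 4 megakaryocyte markers tested 3 were higher (median 2.07) and of 15 macrophage markers 4 were lower. Of 2 progenitor markers tested 1 was higher (median 2.01) and of 11 erythroblast markers 2 were higher, and the globin share was 10.5 to 11.8% and 10.0 to 11.3%. The wild-type males were embryos 0 and 8, whose S1 libraries stood apart. Their part in the difference was not tested.

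**Figure D5:**
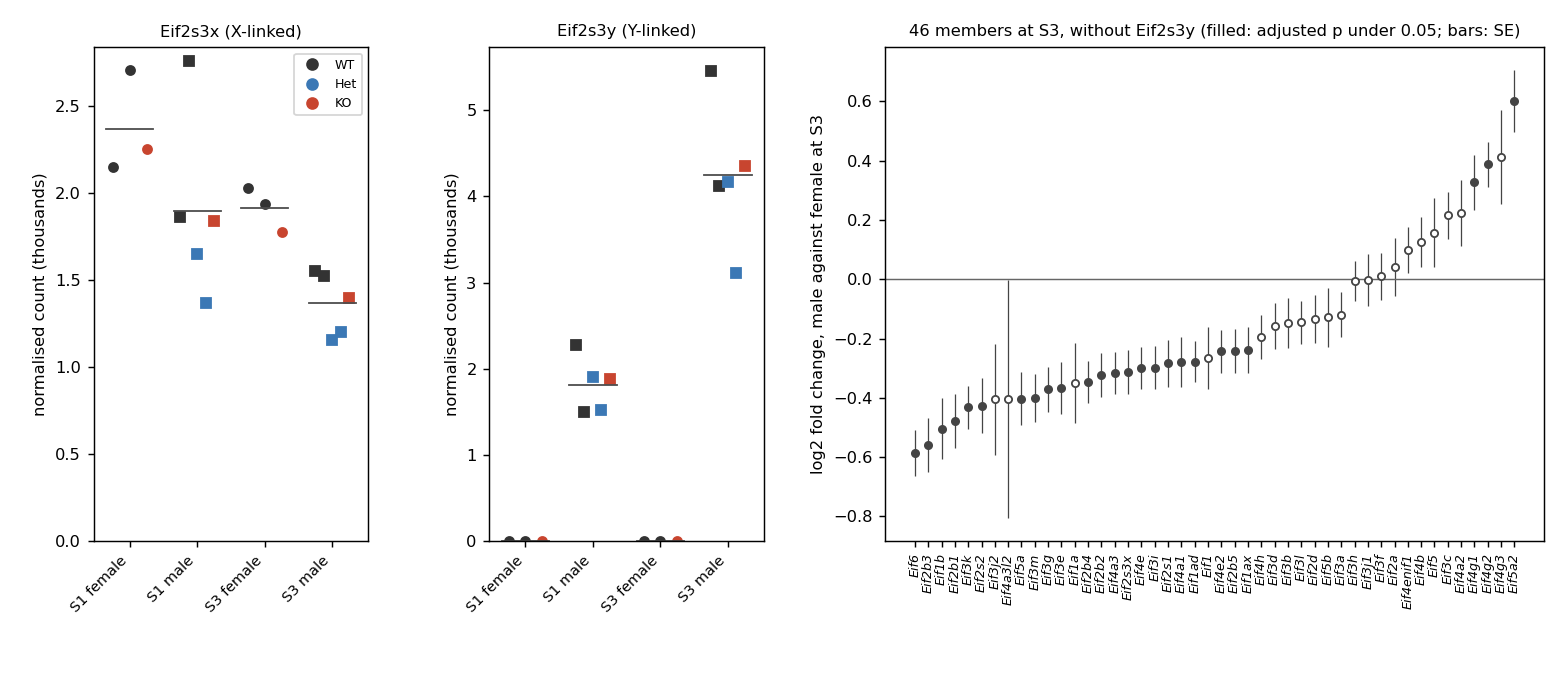
Left and middle, normalised counts (axis scaled as labelled) of Eif2s3x and Eif2s3y in every library by stage and sex (lines are means and colours genotypes). Right, log2 fold change of 46 members (all tested but Eif2s3y) in male (5 libraries) against female (3 libraries) at S3. Bars are standard errors and filled points have an edgeR adjusted p under 0.05. Genotype was in the fit, so 2 male were compared with 2 female wild-type embryos and 1 with 1 KO embryo. The 2 Het males, without Het females, did not inform the difference. Most of the filled points lie below 0, and only Eif5a2, Eif4g2 and Eif4g1 are filled above it.

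Genes around the initiation factors were counted from a list of 36, of which 35 were tested. From S1 to S3 in wild-type 10 were higher and 16 lower (30.6% and 35% of all genes). The 3 with the smallest p were Bzw2, a relative of eIF5 that fell by 3.97 on the log2 scale, Ppp1r15a, which brings a phosphatase to eIF2 (5.21), and the haem-sensitive eIF2 kinase gene Eif2ak1 (3.67). Eif2ak1 had 2658 to 6386 normalised counts in wild-type at S1 and 41106 to 59619 at S3, the opposite direction to the amino acid-sensitive kinase gene Eif2ak4, which fell by 1.58. Eif4ebp1, the mTORC1-regulated inhibitor of eIF4E, fell by 1.84. Between KO and wild-type 0 of the 35 were called at either stage (0.559% of all genes at S3 and 0.00712% at S1). The smallest p at S3 were those of the interferon-induced kinase gene Eif2ak2 (1.54, adjusted p = 0.0745) and of Eif4ebp1 (1.41, adjusted p = 0.0898), whose normalised counts of 3258 and 2625 in KO embryos 2 and 9 exceeded the 631 to 1544 of wild-type.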

How the data were processed

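RNA was measured from sorted S1 and S3 cells of foetal livers, from few cells per library, amplified before library preparation. The labels also name an embryonic stem cell line as source, while the titles and protocols give foetal liver. Per the labels and the study's methods, reads were aligned to mm39 with STAR 2.7.9 and the raw counts per gene that the authors deposited were made with featureCounts 1.6.4 and Ensembl release 104, without strand, leaving out reads that mapped to several places or genes. The 55416 genes were named from GENCODE release 39 (54749 matched, 667 did not), and 4 library columns not tied to a sample by the labels were not used. Groups came from the labels. Each library is 1 embryo and stage, so p-values measure the spread between embryos.

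Genes with a mean above 10 TMM-normalised counts in the libraries of a fit were tested with edgeR 4.0.16 (R 4.3.3), quasi-likelihood F-test, with Benjamini-Hochberg adjustment over all of them and a threshold of 0.05. Normalised counts in the text are on the scale of all 16 libraries. The wild-type maturation fit used 8 libraries, Het and KO maturation shared a fit of all 16, and genotype and sex were tested within stage. The steps were also run on simulated counts with large known changes and no embryo effect. That run does not show how well the smaller changes given here are recovered. Depth was 23331156 to 36035368 counts at S1 and 20666044 to 37609502 at S3. TPM and length-scaled shares were computed from exon length.

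The members and gene lists were chosen with earlier results of these data known. Named genes were the 5 called members with the largest rise and fall from S1 to S3, the 3 with the smallest p elsewhere, the called members by sex, and the paralogue pairs. Same-numbered libraries came from 1 embryo, and their deviations from group means correlated at 0.0405 to 0.380 over 13402 genes. Alternatives were DESeq2 1.42.0, other scalings and filters, covariates, the embryo as a block, and leaving out embryos.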

Additional observations from a re-analysis of the deposited data

Results flagged for a closer look

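In 3 of 84 groups of 4 wild-type libraries, covering 35 members, 1 library lay far from the others by Dixon's criterion, which chance alone passes in about 1 of 20 groups. Eif3k had 4065 normalised counts in S1 cells of wild-type embryo 8, against 7433 to 8000 in the other 3 embryos. Eif3m had 8060 in the same library, against 12154 to 12540. Eif5 had 125879 in S3 cells of embryo 8, against 99448 to 103409. All 3 values came from embryo 8, whose S1 library also had a high globin share.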

How the results depend on the processing

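Of the counts of called members and the paralogue shares, 306 values under an alternative kept their direction and, for a count, stayed within 1.5 times its main value or, for a share, on its side of the threshold, and 28 did not; of the single genes 669 were unchanged in call, 62 lost it, 3 gained it and 3 changed sign. Scaling by total count, added after seeing the data, gave 3 members higher and 41 lower from S1 to S3 in wild-type (13.8% and 63.1% of all genes), 3 and 40 in Het (13.9% and 56.2%), and 3 and 39 in KO (12.6% and 55.7%), and turned Eif5b to -0.082 and Eif3k to -0.35. Without a filter on low counts 4 members were higher in Het (13.3% of all genes) and 3 in KO (12.1%). The 4 Het libraries alone gave 25 lower (39.6%), and upper-quartile scaling gave 15 lower in KO (35.2%). Leaving out 1 embryo at a time gave 7 to 10 higher (25.3 to 31.7% of all genes) and 10 to 15 lower (29.4 to 33.7%) in wild-type, 3 to 8 (19.3 to 30.8%) and 5 to 17 (22.1 to 34.6%) in Het, and 4 to 9 (19.4 to 29.0%) and 5 to 13 (20.5 to 32.3%) in KO. The embryo as a replicate block gave 10 higher and 16 lower in wild-type (33.3% and 36.3%), 10 and 17 in Het (31.4% and 34.4%), and 9 and 13 in KO (29.2% and 32.1%). It changed no call of the 5 largest rises and 5 largest falls. The paired exact test of the shares cannot go below 0.125. With sex as a covariate Het against wild-type gave 9 higher and 4 lower at S3 (8.84% and 9.25%) and 1 lower at S1 (1.55%), and without wild-type embryos 0 and 8, added after seeing the data, 1 higher at S1 (0.0292%). The counts of higher members by sex include Eif2s3y. By sex at S1, DESeq2 gave 2 higher (3.36%) and no filter 3 higher and 2 lower (3.53% and 3.03%), and Eif2s3x ranged from -0.288 to 0.042 when 1 embryo was left out, the highest without wild-type embryo 0. By sex at S3 the wild-type libraries alone, added after seeing the data, gave 8 lower (6.88%), and leaving out 1 embryo gave 12 to 23 lower (9.66 to 15.1%) and 3 to 4 higher (9.08 to 13.4%). The cause of these shifts was not tested. With 2 embryos in Het and KO, an exact test of 4 against 2 cannot go below 0.0667, and Eif4e3 and Eif4a3l2 rest on few reads.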
